A study of Mus musculus with 6 samples.

Results

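The genes described here are 10 procollagen hydroxylases and folding helpers, P4ha1, P4ha2, P4hb, Plod1, Plod2, Plod3, Crtap, Ppib, Serpinh1 and Fkbp10, chosen by gene symbol out of 25955 entries in a bulk RNA table of sorted mouse bone marrow cells. Each symbol stood once in the table. The cells came from C57BL/6 mice and from enzymatically digested marrow, and the groups were 3 CD51+ libraries and 3 CD44+CD51- libraries of cells that the labels call TNCs. In this field that term is used for marrow cells that lack surface markers of mature blood, red and endothelial cells. Itgav encodes CD51, an integrin alpha chain, and CD44 binds hyaluronan. No treatment, transgene or deletion is named in the labels, and age, pooling of animals and whether the replicates came from separate animals are not given in the sources used here, so the p-values measure the spread between these samples only. Values are RPKM, read counts scaled for gene length and library size, as the authors deposited them, so levels of different genes can be set side by side.

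Procollagen chains are modified and folded in the endoplasmic reticulum before they leave the cell. Prolyl 4-hydroxylase, built of a catalytic alpha chain (P4ha1, P4ha2 or P4ha3) and the beta chain P4hb, makes the hydroxyproline that keeps the triple helix stable at body temperature, while lysyl hydroxylases (Plod1, Plod2, Plod3) make the hydroxylysine used for sugar attachment and for cross-links. Crtap, Ppib and the enzyme P3h1 form a complex that hydroxylates a few prolines at another ring position and assists folding. Serpinh1 (HSP47) is the chaperone that binds the finished triple helix, and Fkbp10 (FKBP65) is a prolyl isomerase that works with lysyl hydroxylation. In humans, loss of CRTAP, P3H1, PPIB, SERPINH1 or FKBP10 causes brittle bone disease.

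All 10 genes reached an RPKM of 1 in 3 or more samples and so entered the test across 11741 genes, which was limma on log2(RPKM + 1), two-sided, with Benjamini-Hochberg adjustment over all of them and a threshold of 0.05. Plod2 and Fkbp10 were below an RPKM of 1 in every CD44+CD51- library and passed this filter only through CD51+ libraries. For both, the direction and the lack of overlap were therefore fixed by the filter. In CD44+CD51- libraries P4ha2 reached an RPKM of 1 only in replicate 1, and Serpinh1 only in replicate 2. All 10 were higher in CD51+ cells than in CD44+CD51- cells, where 24.1% of the tested genes were higher and 29.7% lower, 53.7% in all. In each of the 10 the lowest CD51+ value lay above the highest CD44+CD51- value, as it did in 26.1% of the tested genes, while 37.5% lay wholly below. The 10 changes had a median of 2.72 on the log2 scale, against -0.23 for all tested genes, and they fell far apart, from 0.62 for Ppib to 8.51 for Serpinh1. Together the 10 genes made up between 0.309% and 0.370% of the summed RPKM in CD51+ libraries and between 0.0885% and 0.109% in CD44+CD51- libraries. In bulk samples fewer cells of a type and less RNA per cell cannot be told apart.

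**Figure D1:**
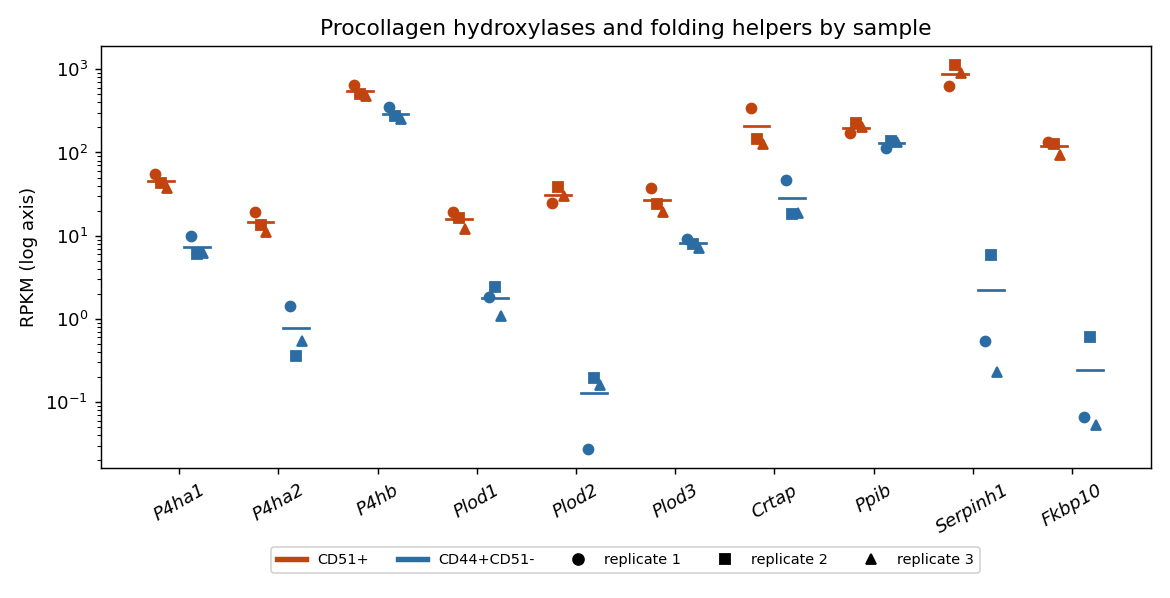
RPKM of the 10 genes in each library on a log axis, CD51+ at the left of each gene and CD44+CD51- at its right, with the symbol shape giving the replicate number and the bar the group mean of 3 libraries. The groups do not overlap for any of the 10 genes, and they stand closest for Ppib and P4hb and farthest apart for Fkbp10, Plod2 and Serpinh1.

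Depth varied within both groups, and the levels of several cell type markers differed between them. The library size behind the RPKM, estimated from the steps between low values, ran from 12195175 to 32486913 reads in CD51+ libraries and from 19292513 to 25584595 in CD44+CD51- libraries. The 8 neutrophil markers summed to between 84520 and 87420 RPKM in CD51+ libraries and between 5765 and 28410 in CD44+CD51- libraries, and 8 of 8 were higher in every CD51+ library. The 10 osteolineage markers summed to between 33040 and 42980 RPKM in CD51+ libraries and between 32.4 and 167 in CD44+CD51- libraries, again 10 of 10 apart. Of the 8 macrophage markers 8, and of the 8 plasma cell markers 5, were higher in every CD51+ library, while 1 plasma cell marker was lower in every CD51+ library. The macrophage markers summed to between 451 and 554 RPKM in CD51+ and between 36.1 and 174 in CD44+CD51- libraries, and the plasma cell markers to between 226 and 340 in CD51+ and between 92.5 and 156 in CD44+CD51- libraries, where Tnfrsf17 was at 0 throughout. The 8 marrow stromal markers (1761 to 2906 RPKM in CD51+, 0.878 to 9.87 in CD44+CD51- libraries) were likewise 8 of 8 apart, and 6 of 8 chondrocyte markers were (140 to 203 in CD51+, 0.116 to 0.243 in CD44+CD51- libraries, where Col9a1, Matn1 and Sox9 were at 0). Most of the chondrocyte sum in CD51+ libraries was Col2a1, at 105, 170 and 135 RPKM. Col2a1, and Col1a1 and Col1a2 of the osteolineage list, are counted again below as collagen chains. The 8 erythroid markers ran the other way, at 1531 to 2692 RPKM in CD51+ libraries and 5944 to 6283 in CD44+CD51- libraries, and 6 of 8 were lower in every CD51+ library. So did 7 of 8 early B cell markers, which summed to between 63.2 and 117 RPKM in CD51+ and between 250.2 and 745 in CD44+CD51- libraries. Of the 7 mural markers 6 were higher and 1 was lower in every CD51+ library. The 7 summed to between 10.6 and 20.3 RPKM in CD51+ and between 0.299 and 3.04 in CD44+CD51- libraries. The 8 megakaryocyte markers followed the replicate number, with 146, 122 and 2355 RPKM in CD51+ and 236, 253 and 1014 in CD44+CD51- libraries, so replicate 3 was the highest in both. The 8 endothelial markers had overlapping sums, between 5.65 and 9.14 RPKM in CD51+ and between 1.71 and 8.75 in CD44+CD51- libraries. Of these 8, 1 was higher in every CD51+ library. The part of all these marker differences in the changes below was not tested. Among CD44+CD51- libraries, replicate 2 had the highest osteolineage, marrow stromal, neutrophil and macrophage sums. Itgav was at 7.01 ± 2.43 RPKM in CD51+ and 0.677 ± 0.244 in CD44+CD51- cells (SD, n = 3 each), the direction of the sort. Cd44 was at 31.5 ± 2.98 RPKM in CD51+ and 34.8 ± 2.57 in CD44+CD51- cells, with no difference detected (limma adjusted p = 0.401). Ptprc encodes the blood cell antigen CD45 and was looked at after the values were seen. It was detected in both, at 6.87 ± 0.643 RPKM in CD51+ and 3.25 ± 1.28 in CD44+CD51- cells. Its groups did not overlap, and it was called higher in CD51+ cells (log2 change 0.93, limma adjusted p = 0.0122).

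Of the prolyl 4-hydroxylase genes, both tested alpha chains rose several fold, and the beta chain had a smaller log2 change than either. P4ha1 (GRCm38 chromosome 10, 59323296 to 59373304, plus strand), the alpha chain that most cells use, had 55.6, 42.4 and 37.8 RPKM in CD51+ libraries, against 9.94, 5.98 and 6.27 in CD44+CD51- libraries. Every CD51+ library was at least 3.81 times the highest CD44+CD51- library, and replicate 1 was the highest of its group in both. The log2 change was 2.48 ± 0.23 (SE), with an adjusted p of 0.000212 by limma. P4ha2 (chromosome 11, 54100095 to 54131665, plus strand), the alpha chain known from cartilage and bone cells, had 19.4, 13.5 and 10.9 RPKM in CD51+ libraries and 1.44, 0.357 and 0.539 in CD44+CD51- libraries, a log2 change of 3.14 ± 0.29 (SE; limma adjusted p = 0.000201). The third alpha gene, P4ha3, was at 0.324 ± 0.110 RPKM in CD51+ and 0.139 ± 0.0947 in CD44+CD51- cells (SD, n = 3 each), too low to be tested, and its groups overlapped.

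P4hb (chromosome 11, 120560298 to 120573253, minus strand) is also protein disulfide isomerase, an abundant enzyme of secretory cells that serves many proteins besides collagen. It had 646, 508 and 475 RPKM in CD51+ libraries, against 347, 277 and 249 in CD44+CD51- libraries. The groups were apart, but the lowest CD51+ library stood only 1.37 times above the highest CD44+CD51- library. The log2 change was 0.90 ± 0.21 (SE; limma adjusted p = 0.0114), and without CD44+CD51- replicate 3 it missed the threshold (log2 change 0.79, adjusted p = 0.0555); over 14 alternatives its adjusted p lay between 0.00132 and 0.0555. P4hb was the highest of the 10 genes in every CD44+CD51- library.

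The balance of the subunits was compared within each library. For each unit of the summed alpha genes there were 8.58, 9.02 and 9.69 units of P4hb RPKM in CD51+ libraries and 30.3, 43.3 and 35.3 in CD44+CD51- libraries. The groups did not overlap (means 9.10 ± 0.561 and 36.3 ± 6.56, SD, n = 3 each; two-sided exact permutation p = 0.1, below which 3 against 3 samples cannot go; adjusted p = 0.14 over 7 ratios compared). P4ha1 held 73.7%, 75.4% and 77.2% of the RPKM of the 3 alpha genes in CD51+ libraries and 86.6%, 93.3% and 88.9% in CD44+CD51- libraries. P4ha2 took nearly all of the remainder in CD51+ libraries, and the exact permutation p for the P4ha1 share was again 0.1 (adjusted p = 0.14).

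**Figure D2:**
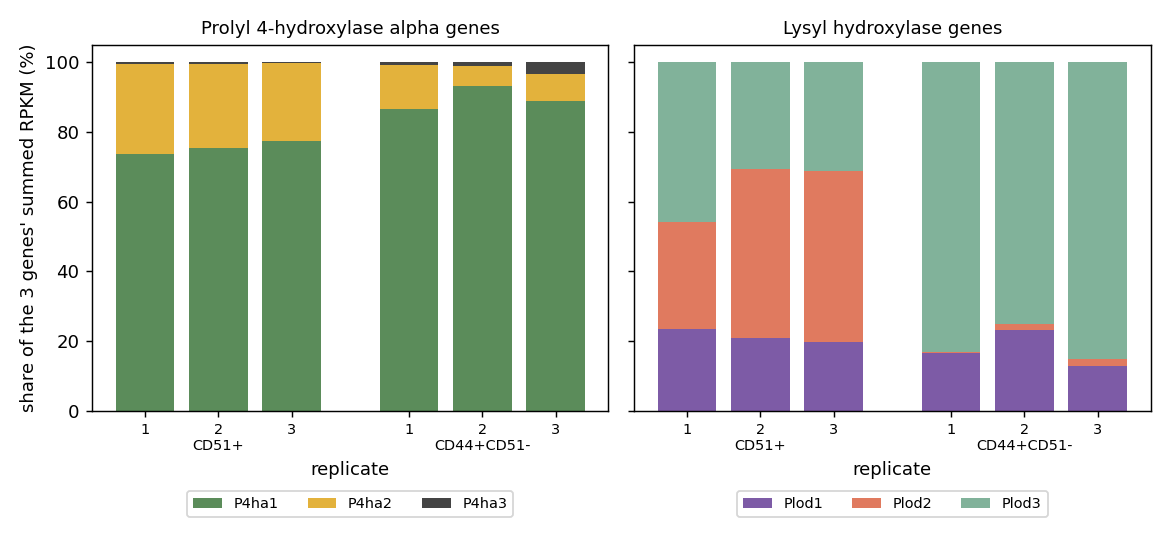
Share in percent of each gene in the summed RPKM of its family, by library, for the 3 prolyl 4-hydroxylase alpha genes (left) and the 3 lysyl hydroxylase genes (right), with CD51+ bars left of CD44+CD51- bars. Plod2 is a visible band of 30.6% to 49.0% in CD51+ libraries and of 0.245% to 1.96% in CD44+CD51- libraries.

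The 3 lysyl hydroxylase genes all rose, with log2 changes from 1.57 to 4.81. Plod2 (chromosome 9, 92542223 to 92608428, plus strand), the enzyme for lysines in the ends of the chains where cross-links form, had 24.7, 38.2 and 30.1 RPKM in CD51+ libraries, against 0.0272, 0.196 and 0.163 in CD44+CD51- libraries. Those low values stand for an estimated 3, 27 and 17 reads. The lowest CD51+ library was 126 times the highest CD44+CD51- library, and the log2 change was 4.81 ± 0.19 (SE; limma adjusted p = 6e-06). The pseudocount of 1 compresses a change from so low a level, and with a pseudocount of 0.1 it was 7.16. The filter fixed the direction for Plod2, as stated above, so the adjusted p adds no support for that direction.

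Plod1 (chromosome 4, 147909753 to 147936767, minus strand), which acts on lysines within the helix, had 19.0, 16.5 and 12.1 RPKM in CD51+ libraries and 1.84, 2.42 and 1.07 in CD44+CD51- libraries. Its log2 change was 2.61 ± 0.25 (SE; limma adjusted p = 0.000223), with no overlap. Plod3 (chromosome 5, 136987019 to 136996648, plus strand), an enzyme that also adds sugars to hydroxylysine and is needed for basement membrane collagen IV, had 37.1, 24.2 and 19.2 RPKM in CD51+ libraries and 9.25, 7.87 and 7.10 in CD44+CD51- libraries. Its rise was the smallest of the family, at 1.57 ± 0.25 (SE; limma adjusted p = 0.00209). Plod3 shares 11.7% of its exon bases with Znhit1 on the opposite strand, and the library kit does not keep strand in its usual use, so reads there could come from either gene. Znhit1 itself was at 25.0 ± 5.57 RPKM in CD51+ and 23.4 ± 4.80 in CD44+CD51- cells (SD, n = 3 each).

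By share of the 3 Plod genes, CD44+CD51- cells had mostly Plod3, and CD51+ cells had all 3 genes. Plod3 held 45.9%, 30.7% and 31.2% in CD51+ libraries against 83.2%, 75.05% and 85.2% in CD44+CD51- libraries, and Plod2 held 30.6%, 48.4% and 49.0% in CD51+ libraries against 0.245%, 1.87% and 1.96% in CD44+CD51- libraries. Neither share overlapped between groups, and each exact permutation p was 0.1 (two-sided; adjusted p = 0.14). Plod2 passed the filter only through CD51+ libraries, so the lack of overlap of its share is no separate support. The Plod3 share is taken from the same sum and is not independent of the Plod2 share. The Plod1 share overlapped, at 21.4 ± 1.93% in CD51+ and 17.5 ± 5.18% in CD44+CD51- cells (SD, n = 3 each; exact permutation p = 0.3, adjusted p = 0.35). In CD51+ replicate 1 Plod3 led the family, while Plod2 led in the other 2 CD51+ libraries.

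Of the prolyl 3-hydroxylation complex, Crtap and P3h1 rose several fold, and Ppib had a smaller log2 change. Crtap (chromosome 9, 114375134 to 114390675, minus strand), the helper chain of the complex, had 345, 145 and 127 RPKM in CD51+ libraries, against 47.2, 18.2 and 18.8 in CD44+CD51- libraries. Replicate 1 stood far above the rest in each group, by 2.54 times the mean of the other libraries in CD51+ and 2.55 times in CD44+CD51- cells. This was not particular to Crtap. Outside the 10, the same ratios in CD51+ and CD44+CD51- cells were 3.08 and 3.09 for Colgalt1 and 2.65 and 3.34 for Pdia4. They were 1.66 and 2.33 for Canx, but only 1.19 and 1.03 for P3h1. The log2 change of Crtap was 2.82 ± 0.49 (SE; limma adjusted p = 0.00306). Without replicate 1 of both groups, a setting chosen after the values were seen, all 10 genes were still called higher. P3h1, the catalytic partner, which is not one of the 10, was at 24.1 ± 2.88 RPKM in CD51+ and 3.66 ± 0.364 in CD44+CD51- cells (SD, n = 3 each), a log2 change of 2.43 ± 0.15 (SE; limma adjusted p = 3.08e-05).

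Ppib (chromosome 9, 66060222 to 66066623, plus strand), cyclophilin B, is a prolyl isomerase of the secretory pathway in most cells. It had 170.4, 223 and 204 RPKM in CD51+ libraries, against 113, 138 and 134 in CD44+CD51- libraries. The groups were apart by a factor of 1.23, the narrowest gap of the 10 genes. Its log2 change of 0.62 ± 0.17 (SE; limma adjusted p = 0.0190) missed the threshold without CD51+ replicate 2 (adjusted p = 0.0736) or 3 (0.0509) and without CD44+CD51- replicate 1 (0.0523) or 3 (0.0552), and over 14 alternatives its adjusted p lay between 0.00352 and 0.0736. Ppib shares 25.0% of its exon bases with Snx22 on the opposite strand, which was at 1.30 ± 0.0923 RPKM in CD51+ and 1.35 ± 1.08 in CD44+CD51- cells (SD, n = 3 each). There were 0.493, 1.54 and 1.60 units of Ppib RPKM for each of Crtap in CD51+ libraries and 2.40, 7.60 and 7.13 in CD44+CD51- libraries, with replicate 1 lowest in both groups (exact permutation p = 0.1, two-sided, adjusted p = 0.14).

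**Figure D3:**
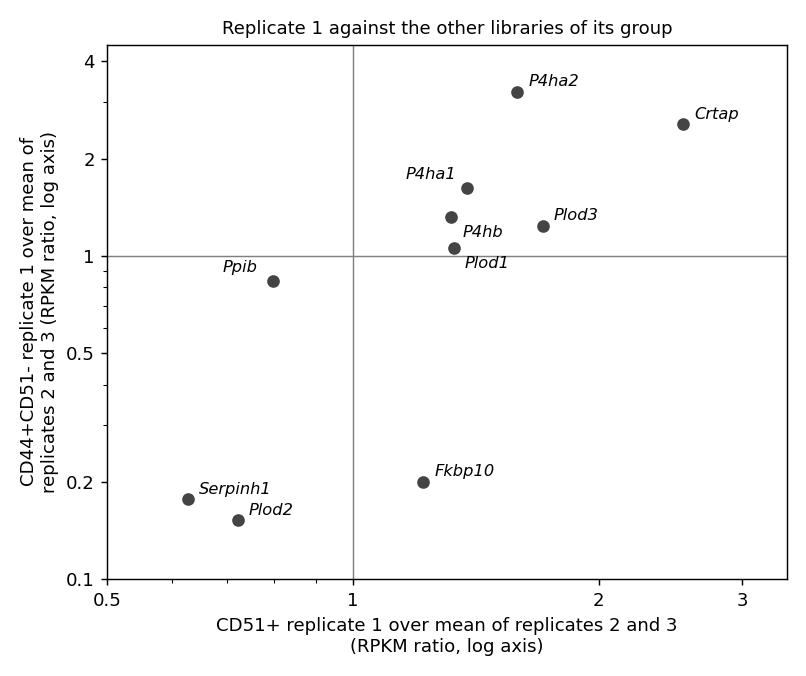
Ratio of replicate 1 to the mean of replicates 2 and 3 for each of the 10 genes, CD51+ on the horizontal and CD44+CD51- on the vertical log axis. Crtap lies near 2.5 on both axes, Ppib, Plod2 and Serpinh1 lie below 1 on both, and Fkbp10 is at 1.22 in CD51+ and 0.200 in CD44+CD51- cells.

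The dedicated collagen helpers Serpinh1 and Fkbp10 had the largest log2 changes of the 10 genes. Serpinh1 (chromosome 7, 99345376 to 99353239, minus strand) had 631, 1119 and 891 RPKM in CD51+ libraries, against 0.541, 5.87 and 0.233 in CD44+CD51- libraries. The CD44+CD51- values of Serpinh1 stand for an estimated 27, 367 and 11 reads. CD44+CD51- replicate 2 held 15.2 times the mean of the other libraries of its group, and without it the CD44+CD51- mean was 0.387 in place of 2.22. The log2 change was 8.51 ± 0.63 (SE; limma adjusted p = 6.92e-05), the 13th largest rise of the 11741 tested genes, and 9.63 with a pseudocount of 0.1. Fkbp10 (chromosome 11, 100415697 to 100424824, plus strand) had 135, 128 and 93.3 RPKM in CD51+ libraries and 0.0667, 0.613 and 0.0529 in CD44+CD51- libraries. The CD44+CD51- values stand for an estimated 4, 46 and 3 reads, replicate 2 again being the highest, by 10.3 times, and without it the CD44+CD51- mean was 0.0598 in place of 0.244. The log2 change was 6.60 ± 0.23 (SE; limma adjusted p = 4.92e-06), the 51st largest rise, and 8.80 with a pseudocount of 0.1. The filter fixed the direction for Fkbp10 too, so this p adds no support for that direction. Fkbp10 shares 6.58% of its exon bases with Nt5c3b on the opposite strand, which was at 10.3 ± 1.64 RPKM in CD51+ and 16.2 ± 1.06 in CD44+CD51- cells (SD, n = 3 each), so some of the few CD44+CD51- reads could come from either gene. Plod2 likewise shares 6.42% with Gm38391, which was at 0.513 ± 0.0724 RPKM in CD51+ and 0.00401 ± 0.00694 in CD44+CD51- cells.

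The main substrates behaved in the same libraries as follows. Col1a1 and Col1a2, the chains of bone collagen, were at 8424 ± 1325 and 4908 ± 615 RPKM in CD51+ and at 7.89 ± 8.30 and 6.46 ± 4.62 in CD44+CD51- cells (SD, n = 3 each), and CD44+CD51- replicate 2 was 5.54 and 3.10 times the mean of the other libraries of its group. For each unit of the summed collagen I chains there were 0.0531, 0.0721 and 0.0709 units of Serpinh1 in CD51+ libraries and 0.0701, 0.201 and 0.0378 in CD44+CD51- libraries. These overlapped, and no difference was detected (exact permutation p = 0.9, two-sided, adjusted p = 0.9). The mean CD44+CD51- level of Col1a1 was 0.0936% of the CD51+ level. The same figure was 0.251% for Serpinh1, 0.206% for Fkbp10 and 0.415% for Plod2, between 5.34% and 30.1% for P4ha2, Plod1, Crtap, P4ha1 and Plod3, and 53.6% and 64.6% for P4hb and Ppib. Without CD44+CD51- replicate 2 it was 0.0372% for Col1a1, 0.0439% for Serpinh1, 0.0504% for Fkbp10 and 0.307% for Plod2, so the order of Serpinh1 and Fkbp10 turned.

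The order of the levels changed with the population. In CD51+ cells the mean RPKM ran from Serpinh1 (881) over P4hb (543), Crtap (206), Ppib (199), Fkbp10 (118), P4ha1 (45.3), Plod2 (31.0), Plod3 (26.8) and Plod1 (15.9) to P4ha2 (14.6). Of these neighbours, Serpinh1 and P4hb, Crtap and Ppib, P4ha1 and Plod2, Plod2 and Plod3, and Plod1 and P4ha2 had overlapping values. In CD44+CD51- cells the order was P4hb (291), Ppib (128), Crtap (28.1), Plod3 (8.07), P4ha1 (7.40), Serpinh1 (2.22), Plod1 (1.78), P4ha2 (0.779), Fkbp10 (0.244) and Plod2 (0.129), where Plod3 and P4ha1 overlapped, as did each pair of neighbours from Serpinh1 down. The place of Serpinh1 rested on CD44+CD51- replicate 2, in which it ranked 6, against 8 in replicates 1 and 3. Without that library its mean was 0.387, below Plod1 (1.46) and P4ha2 (0.991).

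Other genes of the same route were compared as lists. Of 10 tested fibrillar collagen chains, out of 11, all 10 were higher (median log2 change 6.66), with Col1a1 at 10.30, Col1a2 at 9.52 and Col5a2, a minor chain of collagen I fibrils, at 7.12. Except for Col1a1, Col1a2 and Col5a1, the tested chains were below an RPKM of 1 in every CD44+CD51- library. Those chains passed the filter only through CD51+ libraries, so their direction was fixed by it. Of 21 tested genes for other steps of collagen modification, export and trimming, out of 24, 18 were higher and 1 lower (median 2.53). Among them Pcolce, which speeds removal of the C-propeptide, rose by 7.37, Lox, which starts cross-linking, by 7.10, and the endoplasmic reticulum immunophilin gene Fkbp7 by 6.01. In this list Lox, Pcolce, Adamts2, Adamts14, P3h2, P3h3, P3h4, Fkbp14, Creb3l1 and Loxl2 likewise passed the filter only through CD51+ libraries. Adamts3, a procollagen N-proteinase, had the negative change called (-0.68 ± 0.21 SE; limma adjusted p = 0.0316), a call lost in 6 alternatives, among them the omission of CD51+ replicate 2 (0.101) or 3 (0.0761) or CD44+CD51- replicate 1 (0.0744) or 3 (0.0582). In the fit with the replicate block, 2 genes of the list were lower, where 4854 of all 11741 tested genes were.

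General folding enzymes and chaperones of the endoplasmic reticulum had smaller changes. Of 21 tested, 6 were higher and none lower (median 0.35), where 24.1% of all tested genes were higher. Under the replicate block the counts were 10 higher and 1 lower. The 6 became 3 without CD51+ replicate 1, 2 or 3 or without CD44+CD51- replicate 3, and 1 was lower without CD51+ replicate 1. Among the 6 called genes the largest rises were those of Pdia5, a disulfide isomerase, by 1.98, and of the co-chaperones Dnajb9 and Dnajc3 by 1.32 and 0.65. The list ran from -0.98 (Canx, not called) to 1.98 (Pdia5). Plod3, P4hb and Ppib, with changes of 1.57, 0.90 and 0.62, lay within that wide range and above the median of the list.

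Of 21 tested cyclophilin and FKBP genes placed in neither the 10 nor the collagen modification list, out of 22, 4 were higher and 8 lower (median -0.53), where 24.1% of all tested genes were higher and 29.7% lower. The FKBP genes Fkbp7, Fkbp9 and Fkbp14, of which the last pair were chosen after their values were seen, stood in the collagen modification list and were all called higher there, by 6.01, 4.53 and 3.75. Of the 21, 13 were lower with the replicate block, and 5 were lower without CD51+ replicate 2. In these fits 4854 and 2576 of all 11741 tested genes were lower. Ppic, cyclophilin C of the secretory pathway, rose by 5.58, to 185 ± 32.9 RPKM in CD51+ against 3.05 ± 1.46 in CD44+CD51- cells (SD, n = 3 each). Fkbp11, another secretory form, rose by 3.51, and Fkbp1b by 1.94. Ppif, the mitochondrial cyclophilin, fell by 1.29 on the log2 scale, and Fkbp4, a cytosolic partner of Hsp90, fell by 1.20 but missed the threshold without CD51+ replicate 2 (adjusted p = 0.0577).

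Prolyl and lysyl hydroxylases need oxygen, iron and 2-oxoglutarate, and P4ha1, P4ha2 and Plod2 are textbook targets of the hypoxia factor HIF-1. Of 19 tested genes for other such oxygenases, hypoxia targets and ascorbate transporters, out of 21, 7 were higher and 5 lower (median 0.39), against the same 24.1% and 29.7% of all tested genes. Adm, which encodes adrenomedullin, rose by 2.11, Vegfa by 1.63 and Ndrg1 by 1.53, while Pdk1 fell by 1.19. The filter was passed by Adm only through CD51+ libraries. Ldha had a change of -0.88 (limma adjusted p = 0.0285), lost in 6 alternatives, among them the omission of CD51+ replicate 2 (0.109) or 3 (0.0697) or CD44+CD51- replicate 1 (0.0710) or 3 (0.0570). Without CD51+ replicate 2 or CD44+CD51- replicate 3, 3 genes were lower, where 2576 and 2551 of all 11741 tested genes were.

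**Figure D4:**
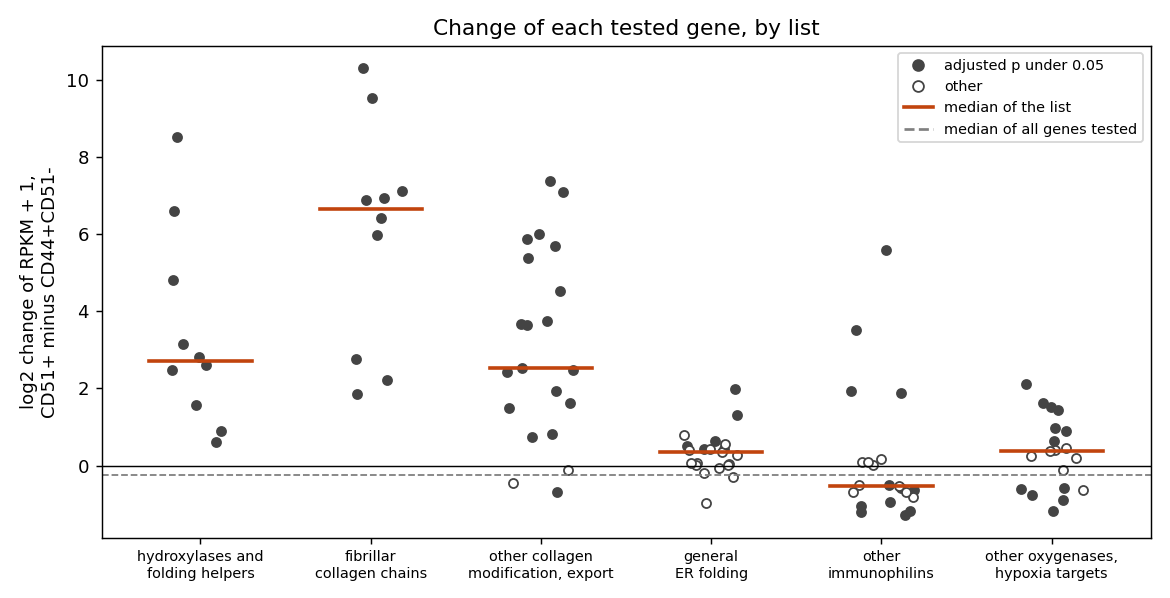
Log2 change of RPKM + 1, CD51+ minus CD44+CD51-, for each tested gene in 6 lists, filled where the adjusted p was under 0.05, with the median of each list and the median of all tested genes (-0.23, dashed). The medians are 2.72 for the hydroxylases and folding helpers, 6.66 for fibrillar collagen chains, 2.53 for other collagen modification and export, 0.35 for general folding, -0.53 for other immunophilins and 0.39 for other oxygenases and hypoxia targets.

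Promoter sequence is shown because the 10 genes moved together but by very different amounts. RefSeq promoters of build GRCm38.p6, from 250 bases before to 50 bases after the gene start, were at hand for 8 of the 10 genes, all but Plod2 and Fkbp10. The hypoxia response core ACGTG, searched on both strands, occurred in 6 of the 8 and in 19.6% of all 32851 promoters. CCAAT, on either strand, occurred in 3 of the 8 and in 37.4% of all promoters, and GGGCGG in 7 of the 8 and 35.7% of all. The endoplasmic reticulum stress element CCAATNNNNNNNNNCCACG, in which the N stand for 9 bases of any kind and which overlaps the CCAAT search, occurred in none of the 8 and in 0.119% of all promoters. TATAAA occurred in 3 of the 8 and 13.6% of all. The shares over all promoters were matched neither for base composition nor for expression in these cells. Whether any motif is more frequent in the 8 was not tested. Ppib, P4hb and Plod3 hold the 3 promoters with CCAAT, a share close to the 37.4% of all promoters. Plod2 and Fkbp10, which had the third and second largest changes, were not searched. No link between CCAAT and the size of a change was tested. Printed are these 3 promoters and that of Serpinh1, chosen by size of change after the values were seen. They run 5′ to 3′ on the gene's strand, with matches to the hypoxia core and the CCAAT box, on either strand, in capitals. The letters are a description of these windows and not evidence of binding.
Serpinh1, chr7:99353190-99353489, minus strand: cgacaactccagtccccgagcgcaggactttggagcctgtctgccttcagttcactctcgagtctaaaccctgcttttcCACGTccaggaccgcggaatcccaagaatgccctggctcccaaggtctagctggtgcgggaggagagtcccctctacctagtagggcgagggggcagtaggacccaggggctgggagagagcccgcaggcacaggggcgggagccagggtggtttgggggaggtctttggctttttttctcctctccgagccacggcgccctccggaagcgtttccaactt
Plod3, chr5:136986769-136987068, plus strand: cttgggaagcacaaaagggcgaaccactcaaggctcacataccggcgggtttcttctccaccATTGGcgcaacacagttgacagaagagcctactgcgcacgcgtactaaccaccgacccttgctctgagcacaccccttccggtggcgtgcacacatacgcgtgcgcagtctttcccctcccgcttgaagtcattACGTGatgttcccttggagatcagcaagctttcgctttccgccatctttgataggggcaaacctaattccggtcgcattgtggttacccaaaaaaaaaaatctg
P4hb, chr11:120573204-120573503, minus strand: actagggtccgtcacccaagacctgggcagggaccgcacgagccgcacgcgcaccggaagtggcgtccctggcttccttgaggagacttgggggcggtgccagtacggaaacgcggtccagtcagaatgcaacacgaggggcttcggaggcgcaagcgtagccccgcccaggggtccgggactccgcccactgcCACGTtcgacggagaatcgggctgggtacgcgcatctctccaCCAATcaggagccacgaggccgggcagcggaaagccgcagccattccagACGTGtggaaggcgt
Ppib, chr9:66059919-66060218, plus strand: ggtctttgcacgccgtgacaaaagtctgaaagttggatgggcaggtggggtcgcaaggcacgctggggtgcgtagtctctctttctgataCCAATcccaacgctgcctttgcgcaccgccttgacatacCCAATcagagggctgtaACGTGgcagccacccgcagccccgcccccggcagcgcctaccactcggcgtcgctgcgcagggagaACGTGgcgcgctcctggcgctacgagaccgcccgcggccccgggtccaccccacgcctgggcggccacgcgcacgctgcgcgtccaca
Counted from the RefSeq gene start, with negative positions before it, the first base of ACGTG or its reverse complement is at -171 in Serpinh1, -54 in Plod3, -56 and 36 in P4hb, and -104 and -38 in Ppib. CCAAT or its reverse complement starts at -188 in Plod3, -14 in P4hb, and -160 and -121 in Ppib, and is not in the Serpinh1 window. The RefSeq start is the GENCODE start given above for Serpinh1, Plod3 and P4hb, while for Ppib it lies 53 bases before it, at 66060169, so the Ppib window ends before the GENCODE start. For P4ha2, which is not printed, the RefSeq start lies 829 bases after the GENCODE start. Its window, counted among the 6 with ACGTG, thus lies inside the gene as placed above.

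By likeness over the 6 samples (Pearson's r of log2(RPKM + 1), a description of 6 points in 2 separate groups), the tested gene most like Plod2 was Ccl2 (r = 1.00), like Fkbp10 Mxra8 (1.00), like P4ha1 Pycr1 (0.999), like Plod1 St5 (0.999), like Serpinh1 Mcts2 (1.00), like P4ha2 Praf2 (0.999), like P4hb Arhgef18 (0.999), like Ppib Mef2c (0.999), like Plod3 Xylt2 (0.998) and like Crtap B930041F14Rik (0.997). Such values are common here, since 1843 genes had r of at least 0.95 with Serpinh1 and 276 with Crtap. The points share their libraries and the split between the groups. Ccl2, Mxra8 and Mcts2 were below an RPKM of 1 in every CD44+CD51- library and passed the filter only through CD51+ libraries. Their high r with Plod2, Fkbp10 and Serpinh1 was thus largely set by the filter and the low level of both genes there.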

How the data were processed

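RNA of 6 sorted marrow samples was analysed. The deposited table gives RPKM, per the file headers. The submitters' processing notes name GRCm38 and edgeR 3.16.5, and aligner, counter and annotation are not given in the sources used here. Of 25955 entries, 4303 were at 0 in all samples. Depth was estimated from steps between low RPKM values with GENCODE M21 exon lengths. Between 89.0% and 91.0% of values of up to 20 reads came out whole within 0.05 read, and summed reads exceeded the estimated library size for a reason not known. Genes with RPKM of at least 1 in at least 3 samples were tested by limma 3.58.1 with an intensity trend in R 4.3.3, after checks on simulated data. Ratios per sample used exact permutation tests.

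Replicate numbers in the titles are not stated to pair the libraries. They were taken as pairs only for the replicate block and the permutation within pairs. Deviations from group means correlated at 0.619, 0.286 and 0.516 for numbers 1, 2 and 3, which meets the rule that each exceed 0.1. CD51+ replicate 2 correlated slightly more with CD44+CD51- replicate 3 (0.324), and CD51+ replicate 3 with CD44+CD51- replicate 2 at 0.198. The main fit has no block, so it and the permutation of 3 against 3 samples ignore any pairing. With the block the limma adjusted p was 1.83e-06 for Crtap and 0.00132 for P4hb, against 0.00306 and 0.0114 without it. Genes named were the 10 members, partner, substrate and sorting-antigen genes, the 3 largest rises and 2 largest falls called per list, and the most alike genes. Members and lists were chosen with earlier results of these data known. Alternatives were another pseudocount, filters, scalings, a block, no trend and each library left out.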

Additional observations from a re-analysis of the deposited data

How the results depend on the processing

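All 10 genes kept their direction in 14 alternatives. The call was lost for P4hb in 1 and for Ppib in 4, each by omitting a library, and all 10 stayed called under both scalings, filters and pseudocounts and with the replicate block, where 3265 genes were higher and 4854 lower. Quantile normalization moved the median change of all genes by -0.114. Genes called higher numbered 1613 with the filter at RPKM 5, where fewer genes were tested. Lists moved as follows. Collagen modification and export had 0 lower with no filter, the filter at 5 or trimmed mean scaling, 2 with the block or without replicate 1 of both groups, and 0 to 1 with 1 library left out. General folding had 10 higher and 1 lower with the block or without replicate 1 of both groups, and with 1 library left out 3 to 6 higher and 0 to 1 lower. Immunophilins had 13 lower with the block and 5 to 9 with 1 library left out. Oxygenases and hypoxia targets had 4 higher at the filter of 5, 3 lower with no filter, and 3 to 4 lower with 1 library left out. The Serpinh1 ratio to collagen I chains reversed without CD44+CD51- replicate 2, to 0.0114, in a range of -0.0703 to 0.0114 with 1 library left out, against -0.0377 with all. Exact permutation within pairs gave p of at least 0.25, the smallest it allows. Of 33 other named genes, 1 value reversed, Cd44 under quantile normalization (0.00799). Apart from changes that come from fewer genes or samples, the cause was not tested. Motif shares over 250 bases before the start alone were 16.6% for ACGTG and 33.8% for CCAAT. Depth limits Plod2, Fkbp10 and Serpinh1 in CD44+CD51- libraries, at 3 reads in the lowest for Plod2 and for Fkbp10 and 11 for Serpinh1.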
